A study of Mus musculus with 72 samples.

Results

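The enzymes that switch the pyruvate dehydrogenase complex off and on were followed across epididymal white adipose tissue (eWAT), liver and pituitary of adult male mice. They are the 4 pyruvate dehydrogenase kinases (Pdk1, Pdk2, Pdk3 and Pdk4), the 2 catalytic subunits of the pyruvate dehydrogenase phosphatases (Pdp1 and Pdp2) and Pdha1, the E1 alpha subunit on which both kinds of enzyme act. These 7 genes, of 55416 in the counts, were found by their Ensembl identifiers. The set was chosen by the counts themselves, since it was put forward with the rise of Pdk4 in eWAT of FED-HFD over FED-CTRL males in view. All values of that comparison are therefore given as a description, with no p-value, and nothing is read from its counts.

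Whole-tissue RNA of 24 males of the strain FVB.129P2-Pde6b+ Tyrc-ch/AntJ gave 72 libraries, 1 from each tissue of each mouse. FED males were born to dams that ate freely. CR20 males were born to dams whose food was cut by 20% from embryonic day 15, through lactation, until weaning. All were weaned on day 21. From 8 weeks of age they ate for 10 weeks either the CTRL diet, 10% fat, or the HFD, which had 45% fat. Each of the groups FED-CTRL, FED-HFD, CR20-CTRL and CR20-HFD held 6 mice, and which mice were littermates is not given in the sources used here. The maternal group thus stands for the food of the dam, not for a genotype, and males alone were sequenced.

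Pyruvate dehydrogenase turns pyruvate into acetyl-CoA inside mitochondria and so commits carbon from glucose to oxidation or to fat synthesis. The kinases phosphorylate the E1 alpha subunit and stop the enzyme, and the phosphatases remove the phosphates and restart it. Pdk4 is known as the kinase most readily raised by fasting, fatty acids and glucocorticoids, Pdk2 as the kinase most widely expressed, and Pdk1 as a hypoxia target. In adipose tissue and liver the complex supplies acetyl-CoA for fatty acid synthesis, and in fasting its inhibition spares glucose.

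The library totals ranged from 11589675 to 22364963 counts in eWAT, from 9842813 to 19928212 in liver and from 18299494 to 27601208 in pituitary. Levels are given as CPM (counts scaled to the size of the library with TMM factors). Tests are edgeR quasi-likelihood tests with p-values adjusted over all tested genes of the tissue, and a gene is called at an adjusted p under 0.055. Log2FC values carry their standard error (SE). Each tissue held the markers of its label. The 8 adipocyte markers summed to 10918 to 39008 CPM in eWAT, the 8 hepatocyte markers to 82536 CPM or more in liver, and the 8 anterior pituitary markers to 232737 CPM or more in pituitary. In eWAT 2 libraries stood low in adipocyte markers, FED-HFD mouse 23 (10918 CPM) and CR20-CTRL mouse 5 (12038 CPM).

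The sequence upstream of 3 kinase genes is shown because the results turn on them, Pdk4 as the kinase with the widest range between diets and Pdk1 and Pdk2 as the kinases called in eWAT of CR20-HFD compared with FED-HFD males. Each is the 250 bases before the first start listed by RefSeq on GRCm38.p6, read 5′ to 3′ on the strand of the gene. Capitals mark a CCAAT box or a GC box core (GGGCGG) on either strand, so that ATTGG is a CCAAT box read from the other strand.
Pdk4, chr6:5496279-5496528, minus strand: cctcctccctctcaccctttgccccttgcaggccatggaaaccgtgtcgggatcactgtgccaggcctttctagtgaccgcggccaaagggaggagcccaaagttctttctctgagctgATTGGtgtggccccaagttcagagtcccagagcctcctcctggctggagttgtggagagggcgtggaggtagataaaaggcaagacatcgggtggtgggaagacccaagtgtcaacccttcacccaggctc
Pdk1, chr2:71872974-71873223, plus strand: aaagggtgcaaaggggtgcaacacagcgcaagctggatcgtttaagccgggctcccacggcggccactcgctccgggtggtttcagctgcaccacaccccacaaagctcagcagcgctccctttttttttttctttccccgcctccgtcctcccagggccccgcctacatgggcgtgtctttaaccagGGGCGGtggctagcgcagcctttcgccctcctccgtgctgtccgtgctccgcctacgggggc
Pdk2, chr11:95041372-95041621, minus strand: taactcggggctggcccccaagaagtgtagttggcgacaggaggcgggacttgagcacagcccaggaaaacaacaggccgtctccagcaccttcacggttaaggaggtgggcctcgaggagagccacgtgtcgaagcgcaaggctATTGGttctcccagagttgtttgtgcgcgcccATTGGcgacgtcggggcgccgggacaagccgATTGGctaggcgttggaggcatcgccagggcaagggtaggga

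The Pdk4 window had a GC content of 58.8% and 6 CG pairs, and those of Pdk1 and Pdk2 had 64.0% and 62.4% with 19 CG pairs each. Over the 32851 promoters of the table the median was 52.4% GC and 6 CG pairs. The CCAAT box was found once in the Pdk4 window (131 bases before the start), at 105, 73 and 42 bases before the start of Pdk2, and not in the Pdk1 window, and 33.8% of all promoters hold one. The GC box core was found in 1 of these 3 windows, that of Pdk1 (62 bases before the start), against 32.7% of all promoters. On both strands, the Pdk4 window held 0 matches to TATAAA, to the forkhead element GTAAACA and to the nuclear receptor half-site AGGTCA. It also held 0 matches to the glucocorticoid receptor half-site AGAACA and to the hypoxia element core ACGTG. From TATAAA to ACGTG, these letters are held by 12.4%, 3.17%, 14.0%, 16.1% and 16.6% of all promoters, in that order. The Pdk2 window held ACGTG at 126 and 125 bases before the start, on opposite strands of 1 overlapping site. The Pdk1 window held 0 matches to ACGTG. Sequence outside these windows was not searched. Of the 7 genes, 6 had a window in the table.

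In eWAT of the offspring of FED dams, Pdk4 stood higher on the HFD in every mouse. Pdk4 (ENSMUSG00000019577, GRCm39 chromosome 6 from 5483097 to 5496339) had a lowest, median and highest level of 28.7, 45.4 and 66.2 CPM in FED-CTRL and of 124, 138 and 224 CPM in FED-HFD. The 2 groups did not overlap, and the log2FC was 1.71 ± 0.25 (SE). This is the comparison in which Pdk4 was noticed, so the values describe the choice of the gene. In bulk tissue, fewer cells of a type and less RNA per cell cannot be told apart.

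The offspring of CR20 dams gave a second set of mice for the same diet contrast, which the choice of the genes did not use. Pdk4 was at 23.7, 42.8 and 97.1 CPM in CR20-CTRL and at 62.9, 101 and 109.9 CPM in CR20-HFD. In CR20-CTRL, mouse 48 was the highest (97.1 CPM), with the other 5 at 47.2 CPM or less, and 4 of the 6 CR20-HFD mice lay above all CR20-CTRL mice. The log2FC was 0.90 ± 0.25 (SE), a 1.87-fold higher level, with an exact permutation p of 0.00866 for Pdk4 as a single gene (two-sided, 6 against 6 mice). Adjusted over all genes the difference did not pass (edgeR adjusted p = 0.789, 0.289 to 0.988 over the 7 alternatives). By edgeR, 0 of the 15964 genes tested were called in this comparison (0%), by voom 0 and by DESeq2 1. At an unadjusted p under 0.05 stood 1 of the 7 genes (Pdk4) and 962 of all genes (6.03%). Without mouse 48 the log2FC was 1.23 (edgeR adjusted p = 0.114), the highest value with any 1 mouse left out. The lowest was 0.77, without CR20-CTRL mouse 33 (edgeR adjusted p = 0.488). Mouse 48 also had the highest adipocyte marker sum of all eWAT libraries (39008 CPM) and the lowest macrophage marker sum (1234 CPM), and their part in its Pdk4 level was not tested.

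**Figure D1:**
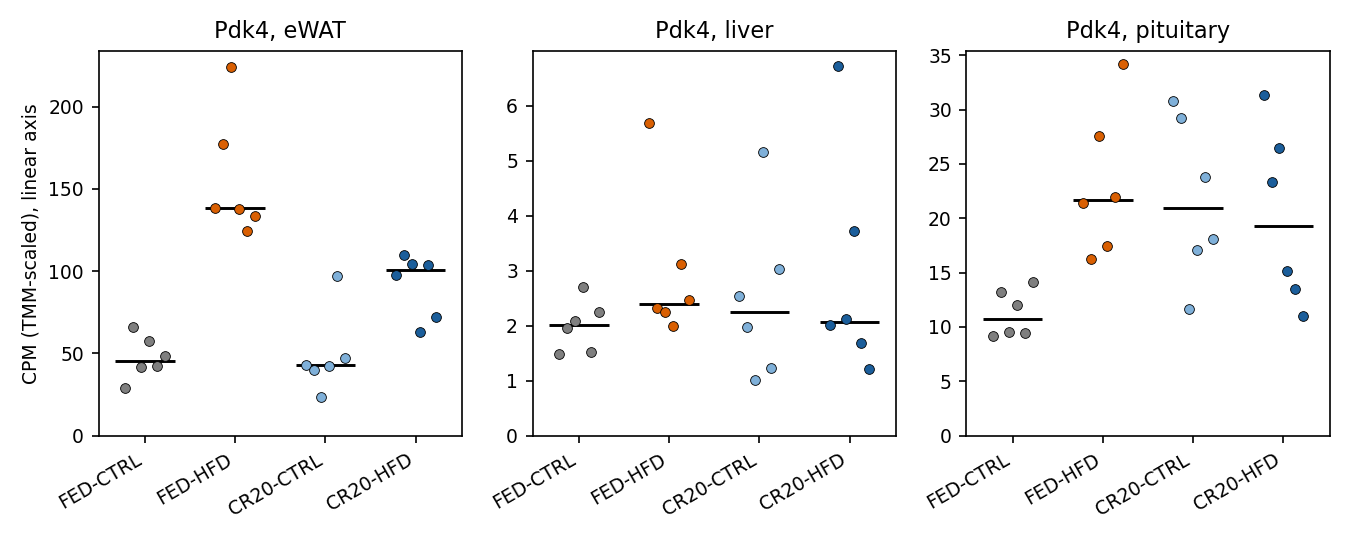
Pdk4 level in each mouse (CPM, linear axis with its own scale per tissue) by group in eWAT, liver and pituitary. Each point is 1 mouse and each bar the group median. In eWAT all FED-HFD mice lie above all FED-CTRL mice, with medians of 138 and 45.4 CPM, and the liver levels stay at or below 6.71 CPM.

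On the CTRL diet, Pdk4 of eWAT was near the same level in both maternal groups, with a log2FC of 0.04 ± 0.25 (SE) in CR20-CTRL vs FED-CTRL. On the HFD, Pdk4 was lower in CR20 than in FED males, with a log2FC of -0.77 ± 0.25 (SE) in CR20-HFD vs FED-HFD, and these 2 groups did not overlap. The log2FC of the HFD was smaller by 0.81 in CR20 than in FED males (an interaction of -0.81 ± 0.35, SE), and the interaction was -0.49 without CR20-CTRL mouse 48. These 2 values hold the FED-HFD mice in which the rise was noticed, and no test is given for them.

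The 3 other kinases gave other patterns in eWAT. Pdk1 (GRCm39 chromosome 2 from 71703488 to 71734202) was at 38.3, 43.7 and 48.7 CPM in eWAT of FED-CTRL and at 17.2, 30.1 and 38.2 CPM in FED-HFD, so the groups did not overlap and FED-HFD was the lower (log2FC -0.60). In CR20 males it was at 38.1, 41.3 and 51.6 CPM on CTRL and at 32.7, 37.3 and 46.6 CPM on the HFD, and the groups overlapped (log2FC -0.17 ± 0.13, SE, edgeR adjusted p = 0.945). On the HFD, Pdk1 was higher in CR20 than in FED males by a log2FC of 0.41 ± 0.13 (SE, edgeR adjusted p = 0.0378, exact permutation p = 0.0216), with 3 of 6 CR20-HFD mice above all FED-HFD mice. This comparison shares the FED-HFD mice with the comparison in which the genes were chosen.

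Pdk2 (GRCm39 chromosome 11 from 94914929 to 94932242) is best known for its wide expression and its sensitivity to pyruvate. Its eWAT levels were 77.6, 92.9 and 106.8 CPM in FED-CTRL, 38.0, 80.7 and 89.9 in FED-HFD, 72.5, 104 and 156 in CR20-CTRL and 89.5, 107 and 145 in CR20-HFD. FED-HFD mouse 23 had the lowest value, and 5 of 6 CR20-HFD mice lay above all FED-HFD mice. Between the HFD groups, Pdk2 was higher in CR20 by a log2FC of 0.60 ± 0.18 (SE, edgeR adjusted p = 0.0307, exact permutation p = 0.00433). Both calls were lost without FED-HFD mouse 23, the library low in adipocyte markers, with a log2FC of 0.31 for Pdk1 (edgeR adjusted p = 0.0797) and 0.47 for Pdk2 (edgeR adjusted p = 0.0709). They were also lost, at log2FC values of 0.35 to 0.42 for Pdk1 and 0.52 to 0.57 for Pdk2, without FED-HFD mouse 13 or CR20-HFD mouse 31 or 32, with edgeR adjusted p-values of 0.0578, 0.0943 and 0.0722 for Pdk1 and of 0.0667, 0.0777 and 0.0656 for Pdk2. That of Pdk1 was lost too without FED-HFD mouse 12 or CR20-HFD mouse 46 (log2FC 0.39 and 0.40, edgeR adjusted p = 0.0796 and 0.0661). With no filter both calls were lost (log2FC 0.40 and 0.59, edgeR adjusted p = 0.0906 and 0.0585), as they were in a fit of only these 2 groups (log2FC 0.41 and 0.60, edgeR adjusted p = 0.107 and 0.0637). The reads of Pdk2 cannot be told apart from those of Samd14 and Gm11513, which overlap it on the other strand, as the strand setting of the counting is not given in the sources used here. The same holds for Pdha1 and Map3k15, which overlaps it on the other strand.

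Pdk3 (GRCm39 chromosome X from 92789513 to 92876389), the kinase known for its tight binding to the E2 core, was the least expressed kinase of eWAT per length, with a median RPKM of 1.65 over the union of exons. In CPM it lay between 8.76 CPM (FED-HFD) and 15.7 CPM (FED-CTRL), with a median of 14.2 CPM in FED-CTRL, 11.6 in FED-HFD, 13.1 in CR20-CTRL and 13.2 in CR20-HFD. FED-HFD stood below FED-CTRL by a log2FC of -0.31. Between the CR20 diets it was 0.01 (edgeR adjusted p = 0.991), and between the HFD groups 0.20 (edgeR adjusted p = 0.2).

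**Figure D2:**
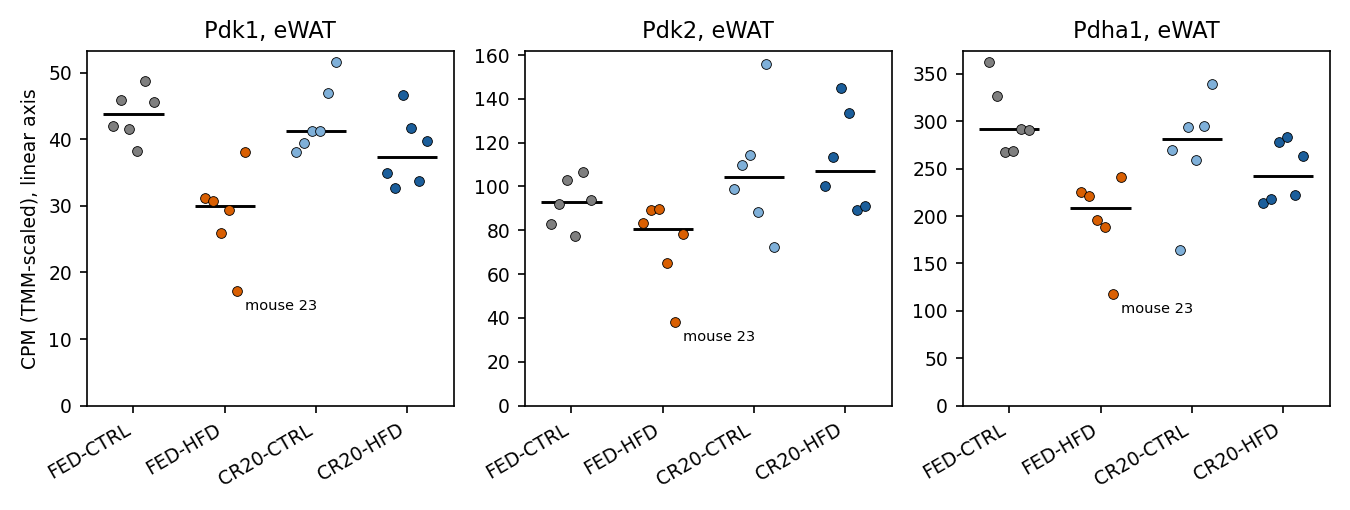
Levels of Pdk1, Pdk2 and Pdha1 in eWAT by group (CPM, linear axis with its own scale per gene). Each point is 1 mouse and each bar the group median. FED-HFD holds the lowest value of each gene, in mouse 23, with medians of 30.1 CPM for Pdk1, 80.7 for Pdk2 and 208 for Pdha1.

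The phosphatase catalytic subunits gave opposite signs in eWAT. Pdp1 (GRCm39 chromosome 4 from 11957712 to 11966468), the calcium-stimulated phosphatase, was at 13.2, 15.0 and 16.5 CPM in FED-CTRL and at 16.1, 18.0 and 22.8 CPM in FED-HFD (log2FC 0.31). Pdp2 (GRCm39 chromosome 8 from 105318052 to 105325671), the phosphatase known to respond to insulin, was at 23.8, 25.0 and 29.9 CPM in FED-CTRL and at 14.2, 20.2 and 25.0 CPM in FED-HFD (log2FC -0.38). Pdp1 thus stood higher and Pdp2 lower on the HFD in the offspring of FED dams, and the groups overlapped for each. In CR20 males both stayed close between diets, with log2FC values of 0.05 ± 0.10 for Pdp1 and 0.02 ± 0.15 for Pdp2 (SE, edgeR adjusted p = 0.962 and 0.991). Between the HFD groups, the log2FC was -0.16 for Pdp1 and 0.28 for Pdp2 (edgeR adjusted p = 0.272 and 0.225).

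Pdha1 (GRCm39 chromosome X from 158904237 to 158921426), the target of all these enzymes, was the most abundant of the 7 transcripts of eWAT per length, with a median RPKM of 49.7 over the union of exons. In CPM it was at 268, 292 and 362 CPM in FED-CTRL and at 118, 208 and 242 CPM in FED-HFD, and these groups did not overlap (log2FC -0.60). In CR20 males it was at 165, 282 and 339.6 CPM on CTRL and at 214, 243 and 283 CPM on the HFD, with a log2FC of -0.13 ± 0.15 (SE, edgeR adjusted p = 0.951). Its lowest values in FED-HFD and CR20-CTRL were those of mouse 23 and mouse 5, the 2 libraries low in adipocyte markers. Pdha1 and Pdk1 varied together over the 24 eWAT libraries (Pearson r of log2 CPM 0.86, and 0.78 for deviations from the group means), a description over libraries that share their depth and tissue makeup.

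In the comparison that chose the genes, eWAT of FED-HFD vs FED-CTRL, the log2FC was above 0 for Pdk4 and Pdp1. It was below 0 for Pdk1, Pdk2, Pdk3, Pdp2 and Pdha1. Of all genes 11.1% were called there, 8.09% higher and 3.01% lower. The groups did not overlap for 3 of the 7, Pdk4, Pdk1 and Pdha1, and for 6.76% of all genes. These counts describe the choice and are not a test of the 7 genes. In CR20-HFD vs FED-HFD, 2 of the 6 genes other than Pdk4 passed, Pdk1 and Pdk2, both higher, and the groups overlapped for all 6. There 15.7% of genes were called, 5.28% higher and 10.4% lower, and 6.66% did not overlap. The median log2FC of the 7 genes was 0.28 there, and 0.02 over all genes tested. In CR20-CTRL vs FED-CTRL 0 of 7 passed and 0% of all genes were called, with edgeR adjusted p-values of 0.929 to 0.993 for the 7 genes, and 0 of them at an unadjusted p under 0.05, where 7.39% of all genes stood. DESeq2 and voom also called 0 of the 7, and 153 and 0 of all genes.

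Cell type markers of eWAT also differed between these groups. The 10 macrophage markers summed to 1619.9 to 2370.1 CPM in FED-CTRL, 2512 to 11726 in FED-HFD, 1234 to 2724 in CR20-CTRL and 1341 to 2314 in CR20-HFD, and none of the 10 was at 0 in any group. In CR20-HFD vs FED-HFD, 8 of the 10 were called lower, as were 10.4% of all genes. Of the 8 adipocyte markers 1 (Retn) was called higher, as were 5.28% of all genes. The adipocyte markers summed to 28557 to 32678 CPM in FED-CTRL, 10918 to 30029 in FED-HFD, 12038 to 39008 in CR20-CTRL and 29941 to 34150 in CR20-HFD. Their part in the levels of the 7 genes was not tested. Epididymis and testis markers were at 0.232 CPM or less in all but 3 eWAT libraries, namely CR20-CTRL mice 4 (133 CPM) and 5 (52.2 CPM) and CR20-HFD mouse 6 (28.8 CPM).

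**Figure D3:**
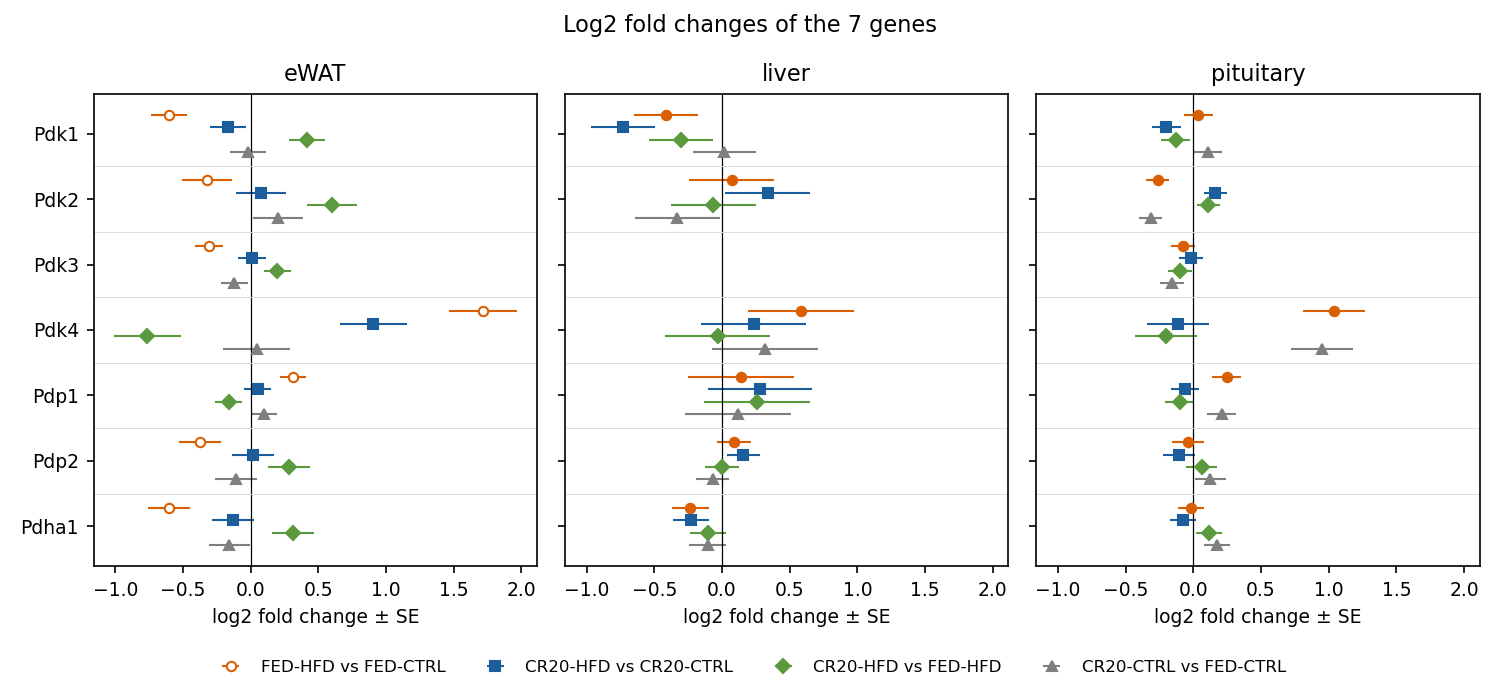
Log2FC with its SE for the 7 genes in 3 tissues and 4 comparisons. Open symbols mark eWAT FED-HFD vs FED-CTRL, in which the genes were chosen and no test is given. Pdk4 reaches 1.71 in eWAT and 1.04 in pituitary of FED males on the HFD, and Pdk1 of liver -0.73 in CR20 males on the HFD.

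In the pituitary, Pdk4 was higher on the HFD in FED males, a tissue whose values did not enter the choice of the genes. Its levels were 9.18, 10.7 and 14.2 CPM in FED-CTRL, 16.3, 21.7 and 34.2 in FED-HFD, 11.7, 20.9 and 30.8 in CR20-CTRL and 11.0, 19.3 and 31.4 in CR20-HFD. FED-CTRL had the lowest median and overlapped both CR20 groups, and all 6 FED-HFD mice lay above all 6 FED-CTRL mice. These 2 groups did not overlap, in either direction, for 0.384% of all pituitary genes. The log2FC of FED-HFD vs FED-CTRL was 1.04 ± 0.23 (SE), with an exact permutation p of 0.00216, the smallest that 6 against 6 mice can give. Over all 16657 genes it did not pass (edgeR adjusted p = 0.15, 0.0036 to 0.234 over the alternatives). It passed with no filter on low counts (edgeR adjusted p = 0.0036) and without FED-HFD mouse 11 (edgeR adjusted p = 0.0505). Brown adipocyte markers were at 323 CPM in the pituitary library of FED-HFD mouse 10, and without that mouse the log2FC was 1.06 (edgeR adjusted p = 0.149).

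Pituitary Pdk4 was also higher in CR20-CTRL than in FED-CTRL males. The log2FC was 0.95 ± 0.23 (SE, edgeR adjusted p = 0.0725, exact permutation p = 0.00866), and 5 of 6 CR20-CTRL mice lay above all FED-CTRL mice. The adjusted p was 0.0285 by DESeq2, 0.0257 by edgeR with no filter, 0.0283 by edgeR without FED-CTRL mouse 42 and 0.0976 by voom. With the GC slope of each library (described with liver Pdk2) as a covariate the log2FC was 0.93, with an unadjusted p of 0.00124 and an adjusted p of 0.404 by edgeR. Between the diets in CR20 males it did not pass (log2FC -0.11 ± 0.23, SE, edgeR adjusted p = 0.934). The log2FC of the HFD differed between CR20 and FED males by -1.15 ± 0.32 (SE), and this interaction did not pass (edgeR adjusted p = 0.314, 0.117 to 0.356 over the alternatives). Both the FED-HFD and the CR20-CTRL comparison rest on the same 6 FED-CTRL mice. Averaged over maternal groups the HFD log2FC was 0.46 ± 0.16 (SE, edgeR adjusted p = 0.566, 0.024% of genes called), and averaged over diets that of CR20 was 0.37 ± 0.16 (SE, edgeR adjusted p = 0.321, 0% of genes called).

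FED-CTRL had the highest median of Pdk2 in the pituitary, where it had the lowest of Pdk4. Pdk2 was at 86.0, 97.2 and 109.6 CPM in FED-CTRL, 74.0, 82.3 and 88.8 in FED-HFD, 70.8, 75.8 and 96.3 in CR20-CTRL and 68.8, 89.3 and 101 in CR20-HFD. Of the CR20-CTRL mice, 5 of 6 lay below all FED-CTRL mice. FED-HFD differed from FED-CTRL by a log2FC of -0.26 ± 0.09 (SE, edgeR adjusted p = 0.292, exact permutation p = 0.00866) and CR20-CTRL by -0.31 ± 0.09 (SE, edgeR adjusted p = 0.0918, exact permutation p = 0.0108). The latter passed by voom (adjusted p = 0.0311), by DESeq2 (adjusted p = 0.0285) and without CR20-CTRL mouse 4 or FED-CTRL mouse 42 (adjusted p = 0.0326 and 0.0328). The interaction for Pdk2 was 0.43 ± 0.12 (SE, edgeR adjusted p = 0.314). With the GC slope as a covariate, the log2FC of CR20-CTRL vs FED-CTRL was -0.19 (edgeR adjusted p = 0.591).

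The other members differed less in the pituitary. Group medians of Pdk3 were 17.8 to 21.6 CPM. Over the 24 mice, Pdk1 lay between 24.3 and 42.7 CPM, Pdp1 between 9.59 and 15.8, Pdp2 between 8.33 and 13.5 and Pdha1 between 39.1 and 67.5. Of these 5 genes, the largest log2FC in any comparison of 2 groups was 0.25 ± 0.11 for Pdp1 in FED-HFD vs FED-CTRL (SE, edgeR adjusted p = 0.444). By edgeR, 0 of the 7 genes and 0% of all genes were called in each comparison of 2 groups and in the interaction. In CR20-CTRL vs FED-CTRL other tools called more, voom 389 genes with Pdk2 among them and DESeq2 431 with Pdk2 and Pdk4. At an unadjusted p under 0.05 stood 3 of the 7 in FED-HFD vs FED-CTRL (Pdk4, Pdk2 and Pdp1), where 9.64% of all genes did, and 2 of the 7 in CR20-CTRL vs FED-CTRL (Pdk4 and Pdk2), where 17.3% did. Deviations of Pdk4 from the group means in eWAT and pituitary of the same mouse had a Pearson r of 0.45 over 24 mice, against 0.06 for eWAT and liver and 0.25 for liver and pituitary.

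In liver, Pdk4 was scarce, and per length Pdk1 and Pdk2 made up most of the kinase transcripts. Pdk4 had 14 to 119 counts per library, with levels of 1.48, 2.01 and 2.69 CPM in FED-CTRL, 1.99, 2.40 and 5.68 in FED-HFD, 1.01, 2.25 and 5.15 in CR20-CTRL and 1.22, 2.07 and 6.71 in CR20-HFD. The groups overlapped throughout, and 1 mouse in each of the last 3 groups (mice 10, 47 and 7) lay well above the others. The log2FC of the HFD was 0.58 ± 0.39 in FED males and 0.23 ± 0.39 in CR20 males (SE, edgeR adjusted p = 0.945 and 0.851), so no difference between diets was detectable at this depth. Pdk3 had 0 to 12 counts per library, with 0 counts in 3 of the 24, and was left out of the tests of this tissue. Pdp1 had 6 to 29 counts per library.

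Pdk1 had the largest log2FC with diet relative to its SE in liver. It was at 69.0, 90.3 and 129 CPM in FED-CTRL, 48.2, 72.1 and 91.7 in FED-HFD, 62.1, 88.3 and 152 in CR20-CTRL and 38.8, 50.5 and 97.6 in CR20-HFD. The HFD groups lay lower, with 5 of 6 CR20-HFD mice below all CR20-CTRL mice and mouse 32 (97.6 CPM) as the exception. The log2FC was -0.41 ± 0.24 in FED males (SE, edgeR adjusted p = 0.868) and -0.73 ± 0.24 in CR20 males (SE, edgeR adjusted p = 0.238, exact permutation p = 0.0303). Averaged over both maternal groups it was -0.57 ± 0.17 (SE, edgeR adjusted p = 0.0788), where 1.83% of genes were called. The average passed by voom (adjusted p = 0.0148) and by DESeq2 (adjusted p = 0.0297), which called 945 and 486 of all genes, against 252 by edgeR. In edgeR it passed with a covariate for the range in which the number of the animal fell (adjusted p = 0.0322), without CR20-HFD mouse 32 (adjusted p = 0.0141) and without CR20-CTRL mouse 33 (adjusted p = 0.0493). Without mouse 32 the CR20 comparison passed as well, with a log2FC of -0.96 (edgeR adjusted p = 0.0493). The interaction was -0.32 ± 0.33 (SE, edgeR adjusted p = 0.999, 0% of genes called), so a difference between FED and CR20 males in this response was not shown.

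Pdha1 of liver varied with Pdk1, with a Pearson r of 0.84 over the 24 libraries and 0.77 for deviations from the group means. Both genes also varied with the GC slope of the library (described with liver Pdk2), with r of -0.75 for Pdha1 and -0.60 for Pdk1. The part of the slope in their correlation was not tested. The log2FC of Pdha1 was -0.23 in FED and -0.23 in CR20 males on the HFD (edgeR adjusted p = 0.873 and 0.569), from medians of 89.2 and 88.0 CPM on CTRL to 77.9 and 71.2 CPM on the HFD. Pdp2 held at medians of 35.4 to 39.1 CPM in the 4 groups. In liver 0 of the 6 tested genes were called in any comparison, where 0.109% of all genes were called for the HFD in FED males, 0.537% in CR20 males and 0% for maternal group on either diet or on average. At an unadjusted p under 0.05 stood Pdk1 in CR20 males on the HFD, where 9.57% of genes did, and Pdk1 and Pdha1 in the average over maternal groups, where 13.2% did.

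Pdk2 of liver varied widely within each group. Its levels were 45.0, 125 and 146 CPM in FED-CTRL, 70.2, 118 and 156 in FED-HFD, 29.9, 109.7 and 118 in CR20-CTRL and 61.3, 108 and 165 in CR20-HFD. The low values came from mice 41, 40, 5, 4 and 32. The same libraries stood apart in GC slope, which is the slope of the deviation of log2 CPM from the mean of all libraries on the GC content of the transcript, per 10% GC. Over the 24 liver libraries the slope ran from -0.38 to 0.21, and the 5 mice named had the values -0.38 (mouse 41), -0.33 (mouse 5), -0.26 (mouse 4), -0.21 (mouse 32) and -0.20 (mouse 40). The Pearson r of Pdk2 with the slope was 0.88 in liver, 0.68 in pituitary and 0.26 in eWAT, and the Pdk2 transcript holds 57.2% GC. For Pdha1 (45.6% GC) r was -0.75 in liver and -0.70 in pituitary, and for Pdk1 (46.7% GC) -0.60 and -0.50. With the slope as a covariate, the liver log2FC of Pdk1 averaged over maternal groups was -0.43 (edgeR adjusted p = 0.117). What sets the slope was not tested.

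**Figure D4:**
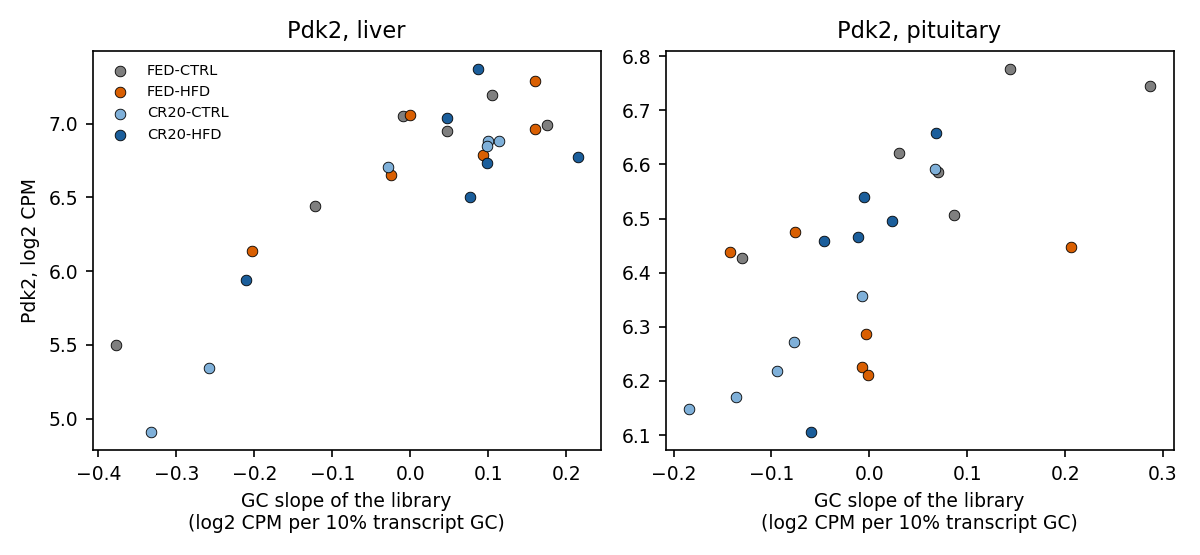
Pdk2 level (log2 CPM) against the GC slope of the library (log2 per 10% GC) in liver and pituitary. Each point is 1 mouse, coloured by group. The points rise from left to right, with a Pearson r of 0.88 in liver and 0.68 in pituitary over 24 libraries each.

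The 3 tissues held different levels of most of the 7 genes. In a fit of all 72 libraries, Pdk4 was 17.4-fold higher in eWAT than in liver and 3.75-fold higher in eWAT than in pituitary (log2FC 4.12 ± 0.17 and 1.91 ± 0.15, SE). Pdk3 was 23.5-fold higher in eWAT and 38.5-fold higher in pituitary than in liver, and Pdp1 was 10.1-fold and 7.98-fold higher. Liver stood above both other tissues for Pdk1 (3.39-fold over eWAT and 3.36-fold over pituitary), Pdk2 (1.87-fold over each) and Pdp2 (2.66-fold and 5.35-fold). Pdha1 was highest in eWAT, 1.81-fold over liver and 4.07-fold over pituitary. The Pdk4 values hold the eWAT FED-HFD mice in which its rise was noticed, and no test is given for them. All the other differences named so far passed, with edgeR adjusted p-values of 1.24e-10 or less. Pdp2 and Pdp1 were also higher (2.01-fold and 1.26-fold) and Pdk3 1.63-fold lower in eWAT than in pituitary, with an adjusted p of 0.000515 for Pdp1. Pdk1 and Pdk2 did not differ detectably between eWAT and pituitary, with log2FC values of -0.014 ± 0.088 (adjusted p = 0.895) and -0.0013 ± 0.115 (SE, adjusted p = 1.0), and the sign of both turned under voom and under library totals alone. Such calls are common, as 83.8% of genes were called between eWAT and liver, 87.1% between eWAT and pituitary and 89.8% between liver and pituitary. With each mouse as a block over its 3 tissues the same members were called, Pdk4 in eWAT left aside. The log2FC of Pdk4 was then 4.20 for eWAT vs liver and 1.94 for eWAT vs pituitary. Scaling by library totals alone, with no TMM factors, moved every eWAT vs liver value up, to a log2FC of 4.86 for Pdk4 and of -0.16 for Pdk2, which was then no longer called (edgeR adjusted p = 0.185). Liver RNA was extracted by another protocol than RNA of eWAT and pituitary, which cannot be told apart from tissue.

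The order of the kinases within a tissue was read per length of transcript, as each kinase's share of the summed RPKM (counts scaled to transcript length and library size) of the 4. In eWAT the mean share of Pdk4 was 52.9% and that of Pdk2 30.5% when the union of all exons was used as the length, and 28.7% and 54.4% with the length of the canonical transcript, so which of the 2 led depended on the length. In liver Pdk2 led with 55.6%, followed by Pdk1 with 41.0% and Pdk4 with 3.22%, and in pituitary Pdk2 led with 47.4%, followed by Pdk4 with 23.0%, Pdk1 with 18.5% and Pdk3 with 11.0% (union of exons). By the canonical length Pdk2 also led in both tissues, with 72.7% and 65.7%, but in pituitary the others then ran Pdk3 (13.8%), Pdk1 (11.6%) and Pdk4 (8.91%), so that Pdk4 was last.

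**Figure D5:**
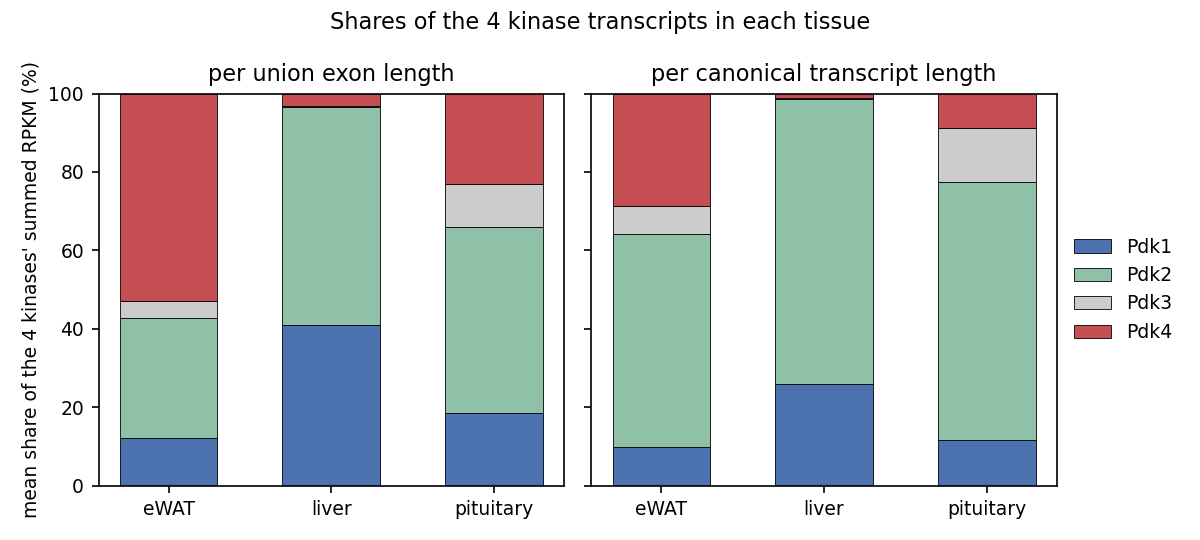
Mean share of each kinase in the summed RPKM of the 4 kinases (percent) by tissue, with the union of exons (left) and the canonical transcript (right) as the length. Each stacked bar is the mean of 24 libraries. Pdk4 takes 52.9% of eWAT by the union of exons and 28.7% by the canonical transcript, and 3.22% or less of liver.

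The share of Pdk4 differed between some groups of eWAT and pituitary by either length, and was not shown to differ between others. By the union of exons it was 41.2% ± 7.51 in FED-CTRL, 75.4% ± 4.46 in FED-HFD, 39.1% ± 8.77 in CR20-CTRL and 55.7% ± 7.45 in CR20-HFD in eWAT (SD, n = 6 mice each). The difference between CR20-HFD and CR20-CTRL was 16.6 percentage points (exact permutation p = 0.00649), and 11.2 points by the canonical length (exact permutation p = 0.00649). That of CR20-CTRL from FED-CTRL was -2.09 points by the union of exons (exact permutation p = 0.667). In pituitary the share was 26.3% in CR20-CTRL and 14.3% in FED-CTRL, a difference of 12.0 points (exact permutation p = 0.00433), and 5.46 points by the canonical length (exact permutation p = 0.00433). Pituitary CR20-HFD, at 24.3% by the union of exons, differed by -1.95 points from CR20-CTRL and by -3.05 points from FED-HFD (exact permutation p = 0.628 and 0.418). Within liver the share of Pdk4 was not shown to differ in the comparisons tested (exact permutation p of 0.262 to 0.835 by the union of exons). The shares of FED-HFD and FED-CTRL were not tested against each other in any tissue. By the union of exons these were 3.66% and 2.20% in liver, and 27.4% and 14.3% in pituitary. In pituitary the 2 groups did not overlap (22.4% to 33.9% in FED-HFD, 12.0% to 17.8% in FED-CTRL).

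The partners of Pdha1 in the complex are Pdhb (E1 beta), Dlat (E2), Dld (E3) and Pdhx (the E3-binding protein), and Pdpr is the regulatory subunit of the Pdp1 phosphatase. None of these 5 was called in eWAT of CR20-HFD vs FED-HFD, where 15.7% of all genes were. Their log2FC was 0.35 for Pdhb, 0.21 for Dlat, 0.15 for Dld, 0.23 for Pdhx and 0.00 for Pdpr, with a median of 0.21 against 0.02 over all genes. In eWAT of FED-HFD vs FED-CTRL all 5 had a log2FC below 0, from -0.48 for Pdhb to -0.12 for Pdpr, given with no test. In liver of CR20 males on the HFD 0 of 5 passed, where 0.537% of all genes were called. Their median there was -0.38 against -0.00 over all genes, and Dlat had the smallest p (log2FC -0.39 ± 0.13, SE, edgeR adjusted p = 0.27). In pituitary 0 of 5 passed in any comparison, where 0% to 0.024% of all genes were called.

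Of the 11 genes for pyruvate supply and other fates, 1 was lower in liver on the HFD in FED males (Me1, malic enzyme, log2FC -1.43), where 0.109% of all genes were called, and 3 were lower in CR20 males, where 0.537% were, Me1 (log2FC -2.08), Acly, the ATP citrate lyase (log2FC -1.92), and Pklr, the liver pyruvate kinase (log2FC -1.34), with a list median of -0.23 against -0.00 over all genes. Averaged over maternal groups, where 1.83% of all genes were called, Pklr, Me1 and Acly were lower (log2FC -1.39, -1.75 and -1.67), as were 1 of 10 regulators known for the kinase genes (Hif1a, log2FC -0.43), and 1 of 10 tested PPAR and fasting targets was higher (Acadm, log2FC 0.31). In eWAT of CR20-HFD vs FED-HFD, 0 of 10 tested pyruvate genes and 0 of 10 regulators passed, against 15.7% of all genes. There the branched-chain kinase Bckdk, a relative of the pyruvate dehydrogenase kinases, was higher (log2FC 0.30, 1 of 5 genes of its list). Of 11 tested PPAR and fasting targets, Plin2 and Cpt1a were lower (log2FC -1.10 and -0.56) and Acot2 higher (log2FC 0.55), and of 10 hypoxia targets Ndrg1 was higher (log2FC 0.86), counts to be read against the same 15.7%. In pituitary Acot1 was higher on the HFD averaged over maternal groups (log2FC 0.53), 1 of 10 tested PPAR and fasting targets, where 0.024% of all genes were called. Of the 8 glucocorticoid targets 0 passed in any comparison of the 3 tissues that was tested.

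The genes whose log2 CPM was most like that of Pdk4 over the 24 libraries of a tissue were named by Pearson r, as a description over libraries that share their depth and their groups. In eWAT they were Angptl4 (r = 0.82), a lipoprotein lipase inhibitor known as a PPAR and fasting target, then Dusp9 (0.82), Cyp4v3 (0.80), Tpm4 (0.77) and Lrg1 (0.77), of 13899 genes compared. Of these, Angptl4 kept an r of 0.76 for deviations from the group means, and the other four had 0.23 to 0.48. In pituitary they were Klf11 (0.88), Angptl4 (0.81), Mtmr12 (0.72), Cdk6 (0.72) and Gpam (0.72), and in liver Hjv (0.70), Stat5b (0.67), Igfbp1 (0.65), Cep44 (0.62) and Btg1 (0.62). Angptl4 was thus among the 5 in eWAT and pituitary and not in liver. Its medians in eWAT were 539 CPM in FED-CTRL, 949 in FED-HFD, 591 in CR20-CTRL and 919 in CR20-HFD, and in pituitary 13.0, 28.2, 21.6 and 25.4 CPM in the same order. For Pdk2 of liver, a gene chosen for this after its values were seen, the 5 genes were Zbtb7a (0.96), Plbd2, Fam234a, Reep6 and Atp13a2, whose transcripts hold 55.3% to 61.9% GC.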

How the data were processed

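RNA was sequenced from eWAT, liver and pituitary of 24 males (FVB.129P2-Pde6b+ Tyrc-ch/AntJ). The authors trimmed reads with Trimmomatic, aligned them to GRCm39 with STAR and counted them per gene with featureCounts of Subread, and deposited unnormalised counts of 72 libraries (versions and strand setting are not given in the sources used here). No 2 libraries were identical. Groups and mouse numbers came from the labels. Of 55416 identifiers, 54749 were named with GENCODE M39.

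For each tissue, edgeR 4.0.16 in R 4.3.3 fitted 24 libraries by quasi-likelihood after filterByExpr and TMM scaling, and p-values were adjusted by the Benjamini-Hochberg method over 15964 (eWAT), 13787 (liver) or 16657 (pituitary) genes, with calls under 0.055, the limit of the study without its minimum log2FC, which is an alternative here. SE is the log2FC over the root of its F. A prior count of 2 entered the log2 CPM. Single values were tested by exact two-sided permutation (924 divisions). Tissues were compared in 1 edgeR fit of 72 libraries. The fits were tested on simulated counts with known changes. Alternatives were voom (limma 3.58.1), DESeq2 1.42.0, DESeq2 size factors, no filter, only the groups compared, animal-number range (under 20, 20 to 39, 40 and over) as covariate, a minimum log2FC of 0.58, leaving out each mouse, and mouse as a block. The GC slope as covariate was added after seeing the data.

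The members, lists and tests were chosen with earlier results of these data known. The text names the 7 genes, list members called in a tested comparison, complex subunits, and the 5 genes of highest Pearson r with Pdk4. That Pdk2 of liver was treated likewise was decided after its values were seen. All mice were counted as replicates, with litters unknown, so p-values measure the spread between mice. Maternal restriction was set per dam, so these p-values treat possible littermates as independent. Union exon and canonical transcript lengths gave RPKM. Promoters came from RefSeq (GRCm38.p6), none for Pdp1.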

Additional observations from a re-analysis of the deposited data

Results flagged for a closer look

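Over the 7 genes, 1 mouse lay far from the other 5 of its group in 3 of 80 groups of 6 tested. The criterion is the gap to the nearest mouse over the range of the group, on log2 CPM, against Dixon's 95% critical value, which chance alone passes in about 5% of groups. Pdk2 of pituitary was at 68.8 CPM in CR20-HFD mouse 7 and at 87.9 to 101 CPM in the other 5 (ratio 0.641). Pdha1 of eWAT was at 118 CPM in FED-HFD mouse 23 and at 189 to 242 CPM in the others (ratio 0.656). Pdha1 of eWAT was at 165 CPM in CR20-CTRL mouse 5 and at 259 to 339.6 CPM in the others (ratio 0.628). The libraries of mice 23 and 5 were those with the lowest adipocyte marker sums in eWAT, 10918 and 12038 CPM, and mouse 23 had the highest macrophage marker sum, 11726 CPM. The part of these markers in the low Pdha1 values was not tested.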

How the results depend on the processing

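As a description of the comparison that chose the genes, 5 of the 7 lay under the threshold in eWAT of FED-HFD vs FED-CTRL. The count was 3 with no filter, with the animal-number covariate, with only the groups compared or with a minimum log2FC of 0.58. It was 3 to 5 with 1 mouse left out. Of all genes, 1771 of 15964 were called there in the main fit and 1280 of 33313 with no filter. The covariate called 1619 of 15964, only the groups compared 1424 of 15141, and the minimum log2FC 1278 of 15964. These counts describe the choice of the 7 genes and are not a test of them. In eWAT of CR20-HFD vs FED-HFD, with Pdk4 not tested, Pdk1 and Pdk2 were called, as were 2510 of 15964 genes. Both were lost with no filter and with only the groups compared, which called 1810 of 33313 and 1753 of 15123 genes. Both were also lost without FED-HFD mouse 13 or 23 or CR20-HFD mouse 31 or 32. Pdk1 alone was lost without FED-HFD mouse 12 or CR20-HFD mouse 46. For the HFD in liver of CR20 males the count of members called was 0, and 0 to 1 with 1 mouse left out. For its average over maternal groups in liver it was 0, and 1 by voom, DESeq2 or the animal-number covariate (0 to 1 with 1 mouse left out). These 3 settings called 945, 486 and 272 of the 13787 liver genes in that order, against 252 in the main fit. In pituitary of FED-HFD vs FED-CTRL it was 0, and 1 with no filter (0 to 1 with 1 mouse left out), where no filter called 61 of all genes. In CR20-CTRL vs FED-CTRL it was 0, with 1 by voom, 2 by DESeq2 and 1 with no filter (0 to 2 with 1 mouse left out). There voom called 389 of all genes, DESeq2 431 and no filter 67. Between eWAT and pituitary the log2FC of Pdk1 (-0.014) was 0.026 by voom and 0.12 with library totals alone, and that of Pdk2 (-0.0013) was 0.021 and 0.14. With library totals alone the lower Pdk2 level in eWAT than in liver was no longer called (log2FC -0.16, adjusted p = 0.185). The causes were not tested. The tissues of 1 mouse pair by its number. With the mouse as a replicate block the same members were called between tissues, Pdk4 in eWAT left aside. Within a tissue the groups hold different mice. The paper states that FED and CR20 dams were paired and that each dam's pups were allotted blindly to a diet. An analysis paired by litter was not possible, as litters are not given in the sources used here. At 6 to 29 counts of Pdp1 and 0 to 12 of Pdk3 per liver library, depth limits both genes in liver.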
